A study of Mus musculus with 4 samples.

Results

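The 4 Ifitm genes that are transcribed at sizeable levels in mouse bone marrow, Ifitm1, Ifitm2, Ifitm3 and Ifitm6, were followed through every cell class of the series. They were chosen by name, with earlier results of these data known, and they are 4 of the 31053 genes in the deposited matrices. Each gene was measured in CPM (its unique molecular identifiers, or UMIs, each the tag of 1 captured transcript, divided by all UMIs of the summed cells and scaled to the usual CPM total) and as the share of cells with at least 1 UMI, in barcodes that passed limits of 500 and 4000 on detected genes and of 15% on the share of mitochondrial UMIs.

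The series profiled bone marrow of 12-month-old C57/B6 mice with single-cell RNA sequencing, to follow a mouse model of myelodysplastic syndrome and the part that interleukin-6 plays in it. Marrow was flushed from femur and tibia and its red cells were lysed. DKO mice lacked mDia1 and miR146a on both alleles (mDia1-/- miR146a-/-), TKO mice lacked Il6 as well (IL6-/- mDia1-/- miR146a-/-), IL-6 KO mice lacked only Il6 (IL6-/-), and TWT mice carried wild-type alleles of all 3 genes (IL6+/+, mDia1+/+, miR146a+/+). The Il6 deletion is constitutive, as the study states. Each genotype gave 1 library, and the labels do not say how many mice went into it. No test between genotypes was therefore possible. Intervals below are exact 95% intervals for counting error only, and a gene was called higher or lower in a class by a rule of size: the levels had to lie 2-fold or more apart, 1 of them at 50 CPM or above, and rest on 30 or more UMIs summed over the pair of libraries.

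IFITM proteins are small membrane proteins of the plasma membrane and endosomes. They are best known for restricting the entry of enveloped viruses: IFITM3 acts mainly at late endosomes and lysosomes, and IFITM1 mainly at the cell surface. Interferons induce several of them, but they are also present in unstimulated myeloid and progenitor cells, and Ifitm6 is a rodent gene described mainly in myeloid cells.

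The 4 genes lie in 1 cluster on mouse chromosome 7 (GRCm38, GENCODE M21), which spans 63.1 kb. Ifitm2 (ENSMUSG00000060591) is at chr7:140954837-140955987 on the minus strand, Ifitm1 (ENSMUSG00000025491) at chr7:140967221-140969825 on the plus strand, Ifitm3 (ENSMUSG00000025492) at chr7:141009586-141010770 on the minus strand and Ifitm6 (ENSMUSG00000059108) at chr7:141015699-141017924 on the minus strand. All 4 are short genes of 2 or 3 exons. No 100-base stretch of the annotated transcripts of Ifitm1, Ifitm3 or Ifitm6 is shared exactly with another gene, and near-identical copies were not searched for. Of such stretches in Ifitm2, 34.9% are shared, nearly all with Gm45717, a read-through gene on the same strand, or with the pseudogene Gm8865. Gm45717 itself held at most 1 UMI in any library.

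Sequence near the start sites is shown because 2 of the 4 genes carry the letters of an interferon-stimulated response element there and the other 2 do not. The 300 bases around each RefSeq start (GRCm38.p6, 250 before to 50 after, found for 4 of 4 genes) were searched on both strands for the core of that element, GAAANNGAAA, for the gamma-activated site, TTCNNNGAA, and for simple C/EBP (TTGCNNAA) and PU.1 (GAGGAAGT) sites. The response element core was found in 3.44% of 32851 mouse promoters of the same length, and the gamma-activated site in 8.30%. C/EBP and PU.1 letters occurred in 10.8% and 3.20% of promoters and in none of the 4 genes. Capitals mark the response element core and the gamma-activated site.
Ifitm1, chr7:140967928-140968027, plus strand: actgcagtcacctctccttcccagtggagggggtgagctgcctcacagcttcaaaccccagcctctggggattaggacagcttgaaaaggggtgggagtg
Ifitm2, chr7:140955988-140956087, minus strand: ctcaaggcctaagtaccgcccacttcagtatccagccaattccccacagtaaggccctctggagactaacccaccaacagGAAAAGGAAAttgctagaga
Ifitm3, chr7:141010716-141010742, minus strand: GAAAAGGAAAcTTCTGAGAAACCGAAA
Ifitm6, chr7:141016884-141016908, minus strand: atgaacTTCCTTGAAacaagagctt
Ifitm3 holds 2 response element cores within 27 bases just past its RefSeq start, with a gamma-activated site between them that overlaps the second core. Ifitm2 holds 1 core, 46 to 37 bases before its start. Ifitm6 holds a gamma-activated site and no core, and Ifitm1 holds neither in this window. A match describes letters only: it shows neither a bound factor nor a cause, and an absent match says nothing of sites elsewhere.

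Between 6794 and 9627 cells per library passed the filter, with median depths of 7053 UMIs in DKO, 4762 in TKO, 4795 in IL-6 KO and 4585.5 in TWT cells. Cells were placed in 19 classes by marker genes, none of them an Ifitm gene, and 6.65% to 10.2% stayed unassigned. No class had more markers of another class than of its own among its 10 leading genes. Any pair of libraries shared 14 to 30 cell barcodes. Diaph1, which encodes mDia1, stood at 11.4 CPM in DKO and 12.4 CPM in TKO, against 178 CPM in IL-6 KO and 163 CPM in TWT, as the labels say. Il6 went against them: it was higher in the libraries labelled TKO and IL-6 KO (8.60 and 9.89 CPM) than in those labelled DKO and TWT (0.235 and 0.807 CPM). The 3′ tags counted here need not lie in the deleted part of Il6, and directions drawn from the libraries labelled TKO and IL-6 KO rest on those labels. IL-6 KO also differed in sex, with 800 CPM of Xist against at most 0.109 CPM in the others. Class makeup differed strongly: monocyte-like cells were 24.1% of DKO cells against 8.17% of TKO, 7.21% of IL-6 KO and 8.32% of TWT cells, and mature neutrophil-like cells 5.28% of DKO cells against 23.2% of TKO, 27.1% of IL-6 KO and 23.9% of TWT cells.

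Over all cells kept, Ifitm2 stood out in DKO marrow. It reached 1592 CPM in DKO, against 642 CPM in TKO, 518 CPM in IL-6 KO and 587 CPM in TWT cells, a ratio of 2.71 to TWT (2.68 to 2.75). Ifitm3 stood at 1702 CPM in DKO, 1265 CPM in TKO, 1012 CPM in IL-6 KO and 911 CPM in TWT cells. Ifitm6, the most abundant of the 4, stood at 2619 CPM in DKO, 1721 CPM in TKO, 1299 CPM in IL-6 KO and 1614 CPM in TWT cells. Ifitm1 was the exception: it was highest in TKO, with 204 CPM in DKO, 306 CPM in TKO, 188 CPM in IL-6 KO and 199 CPM in TWT cells. In such sums over a whole marrow, more cells of a class and more RNA per cell cannot be told apart. When the class levels of DKO were weighted by the makeup of TWT marrow, Ifitm1 came to 386 CPM in DKO against 201 CPM in TWT cells (1.92-fold), where the plain sums gave 1.02-fold, and Ifitm3 came to 1.38-fold where they gave 1.87-fold. Against TKO the weighting turned the direction for Ifitm1, to 1.24-fold from 0.666. When each cell counted equally, Ifitm1 was instead lower in DKO than in TWT marrow (0.574-fold).

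Each gene had its own distribution over cell classes, and that distribution was largely shared by the 4 libraries. Ifitm6 was a gene of immature neutrophil-like cells (which carry Ltf, Ngp and Camp), which held 83.6% of its UMIs in DKO, 82.9% in TKO, 79.9% in IL-6 KO and 80.9% in TWT. Ifitm3 was highest in monocyte-like and non-classical monocyte-like cells. Ifitm2 was spread more evenly over mature neutrophil-like, monocyte-like and non-classical monocyte-like cells. Ifitm1 was sharply divided: it lay at or above 569 CPM in mature neutrophil-like, basophil and mast cell-like and stem and progenitor-like cells, except for the single DKO cell of the basophil and mast cell-like class, and under 100 CPM in the immature neutrophil-like and granulocyte-monocyte progenitor-like cells of every library.

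**Figure D1:**
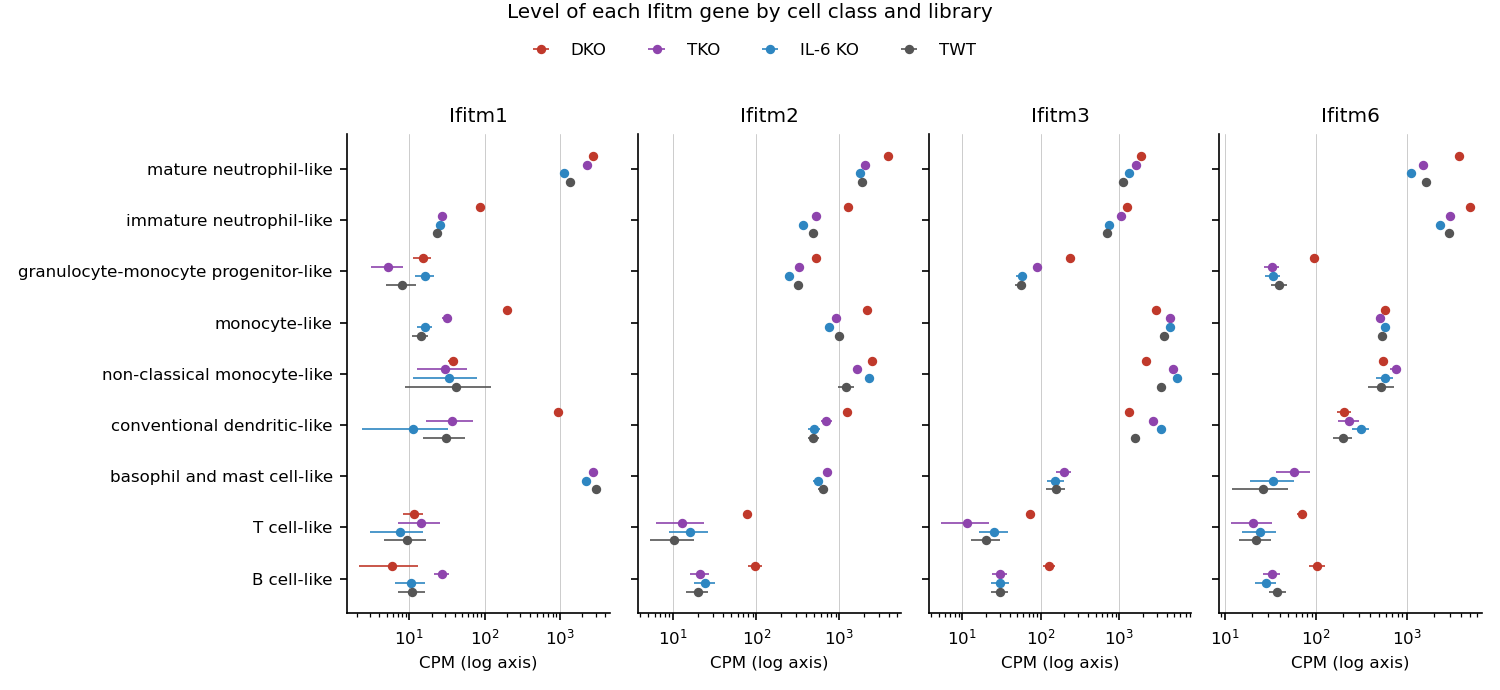
Level of Ifitm1, Ifitm2, Ifitm3 and Ifitm6 (CPM, log axis) in 9 cell classes, 1 point per library with its exact Poisson interval; classes with at least 20 cells in a library and at least 1 UMI are drawn. The points of 1 class lie close together for most genes, and the DKO points for Ifitm1 in monocyte-like and conventional dendritic-like cells (198 and 956 CPM) lie far to the right of the others.

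In DKO against TWT, 7 classes had at least 50 cells in both libraries, which gave 28 pairs of gene and class. Of these, 25 were measured, 17 were called higher in DKO and none was called lower. The background over all genes in the same classes was 4.44% of 19444 gene and class pairs higher and 9.92% lower. Of the 17 pairs, 6 lay in T cell-like and B cell-like cells, and 11 were among the 19 measured pairs of the other 5 classes. The 6 lymphoid pairs passed the minimum level only through DKO, and so did 4 of the 11: Ifitm1 in monocyte-like, immature neutrophil-like and conventional dendritic-like cells and Ifitm6 in granulocyte-monocyte progenitor-like cells. Such pairs had to differ, so their count is no support. With at least 50 CPM asked of both libraries, a stricter rule set after the data were seen, 7 of 15 pairs were higher and none lower, where 2.58% of all pairs were higher and 3.79% lower. Those 7 were Ifitm1, Ifitm2 and Ifitm6 in mature neutrophil-like cells, Ifitm2 in immature neutrophil-like, monocyte-like and conventional dendritic-like cells, and Ifitm3 in granulocyte-monocyte progenitor-like cells.

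DKO was also set against TKO, which shares the loss of mDia1 and miR146a. Both comparisons use the same DKO library, so they are not independent. Of 28 pairs in 7 classes, 24 were measured, 13 were called higher in DKO and 1 lower, against a background of 3.95% higher and 7.54% lower. Outside T cell-like and B cell-like cells, 7 of 18 were higher. The 6 lymphoid pairs passed the minimum level only through DKO. Among the 7, so did Ifitm1 in monocyte-like and immature neutrophil-like cells and Ifitm6 in granulocyte-monocyte progenitor-like cells. Such pairs could not come out lower, so their count is no support. With at least 50 CPM in both libraries, 4 of 15 were higher and 1 lower, where 1.94% and 3.09% of all pairs were. In TKO against TWT, 10 classes gave 40 pairs, of which 23 were measured, 1 was higher and none lower, beside 0.783% higher and 0.886% lower over all genes. In IL-6 KO against TWT, 12 classes gave 48 pairs, of which 23 were measured, 3 were higher and 1 lower, beside 0.929% and 0.819%.

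**Figure D2:**
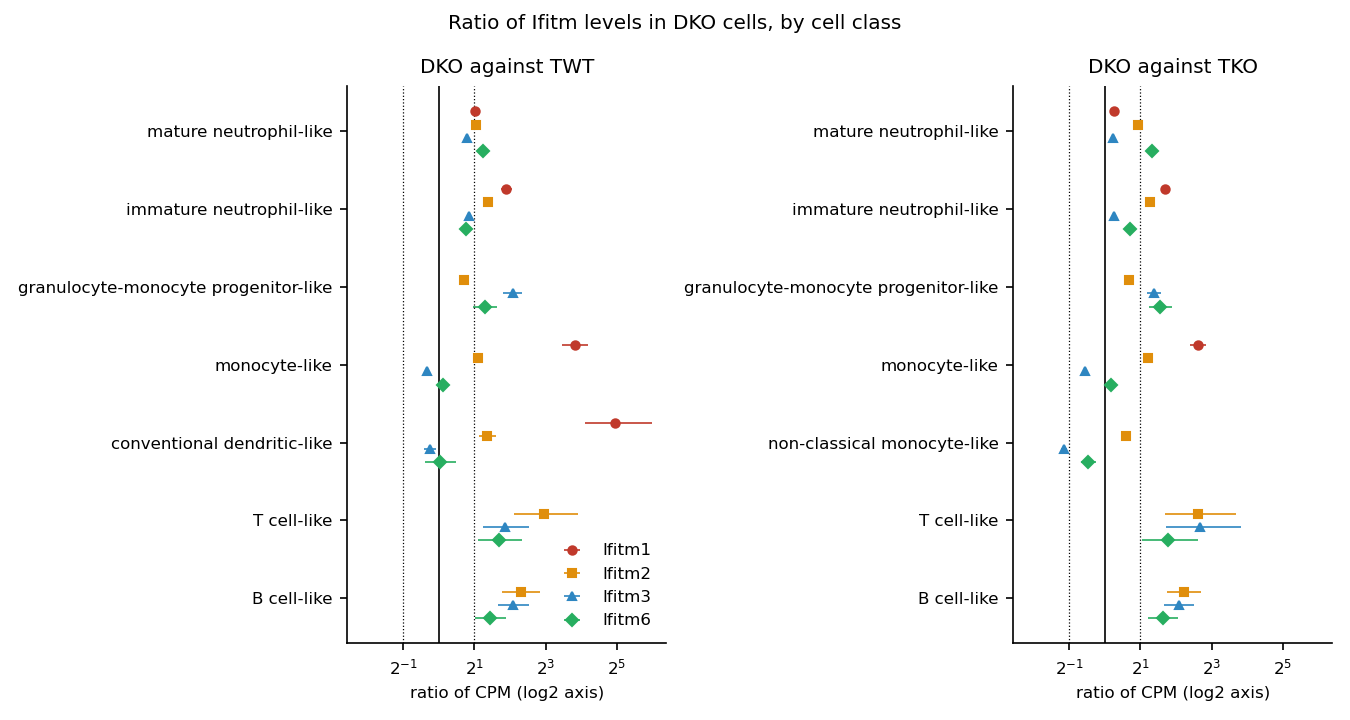
Ratio of CPM (log2 axis) of each Ifitm gene in DKO against TWT and in DKO against TKO, by cell class, with exact intervals for counting error; the solid line marks 1 and the dotted lines mark 2-fold. Ifitm2 lies to the right of 1 in every class drawn, Ifitm1 lies farthest right in monocyte-like and conventional dendritic-like cells, and Ifitm3 lies left of 1 in monocyte-like, non-classical monocyte-like and conventional dendritic-like cells.

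Ifitm1 in monocyte-like cells showed the most particular pattern. Monocyte-like cells (marked by Ccr2, Ly6c2 and F13a1) held 198 CPM of Ifitm1 in DKO (192 to 204), against 32.1 CPM in TKO, 16.0 CPM in IL-6 KO and 14.1 CPM in TWT (10.9 to 17.9). The DKO library is alone at the high end, with an interval far above those of the others. The ratio was 14.0 to TWT (11.0 to 18.1) and 6.17 to TKO (5.29 to 7.23). Other ways of processing gave 8.62 (with a pseudocount of 10 CPM) to 14.5 against TWT and 4.94 to 12.3 against TKO. Those ratios include a pseudocount, and with 1 CPM the main processing gave 13.2 and 6.01. At an equal depth of 2000 UMIs per cell, 17.7% of DKO monocyte-like cells had an Ifitm1 UMI, against 2.46% in TKO, 2.43% in IL-6 KO and 1.62% in TWT (without thinning 36.9% in DKO, 7.61% in TKO, 8.91% in IL-6 KO and 7.26% in TWT). T cell-like cells, given for scale and not known to lack the gene, had shares of 1.82% in DKO, 3.41% in TKO, 1.42% in IL-6 KO and 2.61% in TWT at the same depth. Median depths before thinning were 3647.5 UMIs in DKO T cell-like cells and 9136 UMIs in DKO monocyte-like cells. The DKO monocyte-like share lies above that of its T cell-like cells, and in the other 3 libraries the intervals of both classes overlap. The level was uneven within DKO: the highest cell held 101 UMIs, and the 10% of monocyte-like cells with the most held 72.3% of the class's Ifitm1 UMIs.

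Because mature neutrophil-like cells carry Ifitm1 at much higher levels, neutrophil RNA in monocyte-like barcodes was measured beside this result. S100a8 and S100a9, the most abundant neutrophil transcripts, summed to 7173 CPM in DKO monocyte-like cells against 3790 CPM in TKO, 3833 CPM in IL-6 KO and 2232 CPM in TWT. They do not track mature neutrophil RNA alone. In DKO, S100a8 stood at 95206 CPM in mature and 111758 CPM in immature neutrophil-like cells, and the immature class was low in Ifitm1. Among monocyte-like cells with both genes below 0.1% of their UMIs, a selection made after the data were seen, Ifitm1 stood at 247 CPM in 119 DKO cells (220 to 277), against 9.34 CPM in 397 TKO cells, 13.8 CPM in 83 IL-6 KO cells and 9.75 CPM in 204 TWT cells. The selection kept 5.13% of the class in DKO, 64.2% in TKO, 15.4% in IL-6 KO and 36.1% in TWT, so it took unlike parts of the class. In the selected cells the mature neutrophil markers summed to 1656 CPM in DKO, 1204 CPM in TKO, 1851 CPM in IL-6 KO and 1292 CPM in TWT. The neutrophil chemokine receptor gene Cxcr2, a single marker of the mature neutrophil-like class, separated the libraries in another way. It stood at 5.79 CPM in DKO monocyte-like cells with an Ifitm1 UMI and 3.63 CPM in those without. In TKO it was 80.7 and 9.87 CPM, in IL-6 KO 59.2 and 12.1 CPM, and in TWT 54.8 and 1.61 CPM. The 47 TKO, 48 IL-6 KO and 41 TWT cells with an Ifitm1 UMI had the higher Cxcr2 levels, and the 857 DKO cells differed less from the rest of their class. Summed, the mature neutrophil markers put DKO and TWT cells with an Ifitm1 UMI close together. Such cells held 2203 CPM in DKO, 2590 CPM in TKO, 2547 CPM in IL-6 KO and 2242 CPM in TWT. Cells without an Ifitm1 UMI held 2038 CPM in DKO, 1567 CPM in TKO, 2179 CPM in IL-6 KO and 1478 CPM in TWT. The part of neutrophil RNA in the Ifitm1 level of any library was not tested further. Scrublet's own threshold marked only 0.0104% of DKO cells, which means that it did not work there, against 2.30% to 2.59% elsewhere. With doublets removed under either threshold the ratio to TKO was larger, 12.1 with the other libraries' median threshold used in DKO and 12.3 with each library's own.

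**Figure D3:**
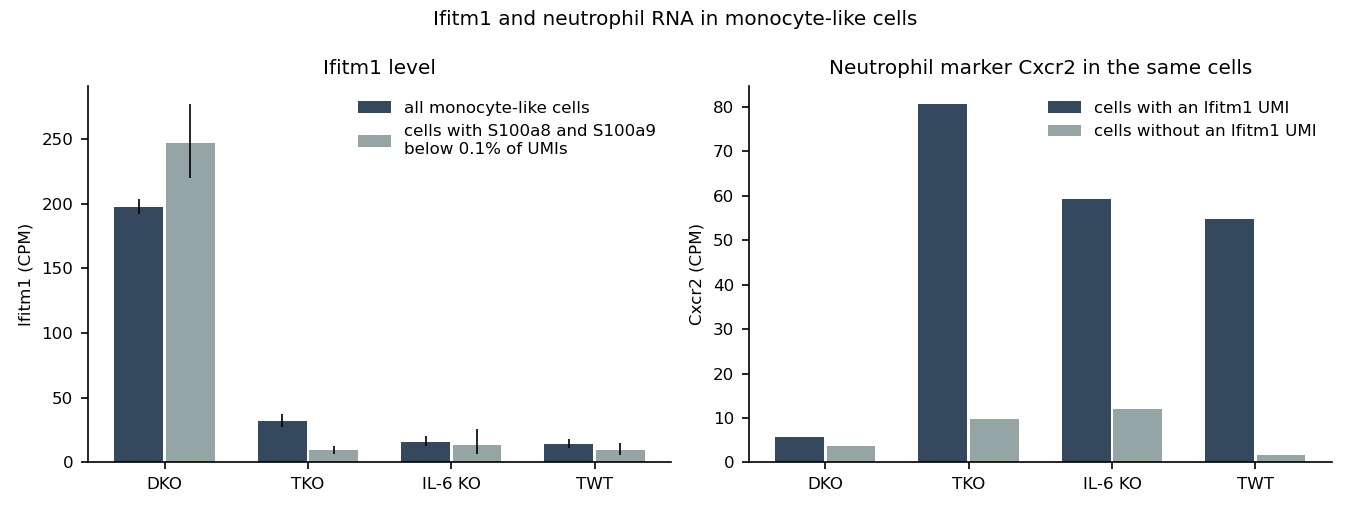
Left, Ifitm1 (CPM, with exact Poisson intervals) in all monocyte-like cells and in those with S100a8 and S100a9 below 0.1% of UMIs, by library; right, Cxcr2 (CPM) in monocyte-like cells with and without an Ifitm1 UMI. Ifitm1 is at 198 and 247 CPM in DKO and at most 32.1 CPM in the other libraries, and Cxcr2 is at 54.8 to 80.7 CPM in Ifitm1-positive cells of the other libraries and at 5.79 CPM in those of DKO.

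Conventional dendritic-like cells (marked by Cd209a, Flt3 and MHC class II genes) were few, with 81 cells in DKO, 36 in TKO, 40 in IL-6 KO and 50 in TWT. Ifitm1 stood there at 956 CPM in DKO (536 UMIs), against 36.8 CPM in TKO (9 UMIs), 11.3 CPM in IL-6 KO (3 UMIs) and 30.8 CPM in TWT (11 UMIs), a ratio to TWT of 31.1 (17.2 to 62.6). Of the 81 DKO cells, 28 had an Ifitm1 UMI, and the 10% of cells with the most held 68.5% of the class's Ifitm1 UMIs. In those 28 cells Ifitm2 and Ifitm3 stood at 1870 and 2175 CPM, against 614 and 499 CPM in the 53 cells without. DKO cells with and without Ifitm1 in this class also differed in depth, with medians of 9882.5 and 3052 UMIs, whose part in the split was not tested.

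Mature neutrophil-like cells were another site of high Ifitm1. In mature neutrophil-like cells (marked by Cxcr2, Retnlg and Mmp8) it stood at 2768 CPM in DKO, 2298 CPM in TKO, 1152 CPM in IL-6 KO and 1382 CPM in TWT. DKO and TKO, the libraries without mDia1 and miR146a, were above the other pair, and the ratio of TKO to TWT was 1.66 (1.61 to 1.72). DKO stood 2.003-fold over TWT (1.93 to 2.08), just inside the 2-fold rule, and dropped to 1.85-fold when genes above 1% of the class's UMIs were left out of the total. In immature neutrophil-like cells Ifitm1 was low, at 87.3 CPM in DKO against 27.1 CPM in TKO, 25.2 CPM in IL-6 KO and 23.5 CPM in TWT (3.72-fold over TWT, 3.37 to 4.12). Basophil and mast cell-like cells (marked by Mcpt8, Prss34 and Cpa3) held at least as much as the mature neutrophil-like cells of the same library, with 2797 CPM in 80 TKO cells, 2199 CPM in 91 IL-6 KO cells and 3035 CPM in 75 TWT cells. DKO held 1 such cell, with 2 Ifitm1 UMIs. The DKO library thus nearly lacked a class that gave 12.1% of Ifitm1 UMIs in TWT marrow, and mature neutrophil-like cells gave 40.1% of them in DKO against 72.8% in TWT, while monocyte-like cells gave 27.02% in DKO against 0.778% in TWT. Stem and progenitor-like cells held 569 CPM in DKO (12 cells), 1420 CPM in TKO (34 cells), 648 CPM in IL-6 KO (42 cells) and 625 CPM in TWT (48 cells).

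Ifitm2 was higher in DKO than in TWT in each of the 5 myeloid classes compared. In monocyte-like cells it stood at 2121 CPM in DKO, against 913 CPM in TKO, 757 CPM in IL-6 KO and 983 CPM in TWT, 2.16-fold over TWT (2.09 to 2.22) and 2.32-fold over TKO (2.25 to 2.39). In immature neutrophil-like cells it stood at 1259 CPM in DKO against 518 CPM in TKO, 362 CPM in IL-6 KO and 482 CPM in TWT (2.61-fold over TWT). In mature neutrophil-like cells it stood at 3842 CPM in DKO against 2012 CPM in TKO, 1771 CPM in IL-6 KO and 1850 CPM in TWT (2.08-fold over TWT). The ratio to TKO in mature neutrophil-like cells was 1.91 (1.86 to 1.97), just outside the 2-fold rule. Conventional dendritic-like cells gave 2.57-fold over TWT (2.18 to 3.06). Granulocyte-monocyte progenitor-like cells (marked by Mpo, Elane and Prtn3) gave 1.63-fold (1.501 to 1.78), which was not called. IL-6 KO was the lowest in 4 of these 5 classes, and TWT was lower than IL-6 KO only in conventional dendritic-like cells, where their intervals overlap.

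Ifitm3 had no single direction. In monocyte-like cells it was abundant and lower in DKO: 2973 CPM in DKO against 4381 CPM in TKO, 4371 CPM in IL-6 KO and 3748 CPM in TWT, a ratio of 0.793 to TWT and 0.679 to TKO, neither of which was called. Nearly every monocyte-like cell had an Ifitm3 UMI at 2000 UMIs per cell, 97.0% in DKO and 97.4% to 97.8% in the others, so the share could show no difference there. In non-classical monocyte-like cells (marked by Cx3cr1, Ace and Treml4) it stood at 2177 CPM in 984 DKO cells against 4797 CPM in 86 TKO cells, 5447 CPM in 46 IL-6 KO cells and 3416 CPM in 22 TWT cells. This was called lower in DKO against TKO (0.454, 0.428 to 0.481), the 1 lower pair of that comparison. At equal depth 82.3% of DKO cells of that class had an Ifitm3 UMI, against all cells of the other libraries. In granulocyte-monocyte progenitor-like cells the order was the reverse, with 234 CPM in DKO against 89.5 CPM in TKO, 56.9 CPM in IL-6 KO and 55.6 CPM in TWT, 4.20-fold over TWT (3.503 to 5.07) and 2.61-fold over TKO (2.29 to 2.99). This class is cut by the upper limit of 4000 genes. With a minimum of 200 genes as the only filter the log2 ratio to TWT was 1.755, where the main filter gave 2.051.

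In both neutrophil classes Ifitm3 followed 1 order of libraries. Mature neutrophil-like cells held 1915 CPM in DKO, 1642 CPM in TKO, 1330 CPM in IL-6 KO and 1104 CPM in TWT, and immature neutrophil-like cells 1239 CPM in DKO, 1039 CPM in TKO, 744 CPM in IL-6 KO and 694 CPM in TWT. The intervals of neighbours in these orders do not overlap. TKO against TWT gave 1.49 in mature (1.44 to 1.54) and 1.497 in immature neutrophil-like cells (1.47 to 1.53), below the 2-fold rule, while Ifitm2 and Ifitm6 of TKO were within 10% of TWT in both classes (ratios of 0.939 to 1.09). Ifitm3 was above 1 in TKO against TWT in all 8 classes with at least 50 cells in both where it was measured, although a stricter gate gave 0.847 in plasmacytoid dendritic-like cells.

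Ifitm6 was higher in DKO in the neutrophil lineage and its progenitors and near level in monocytes. In immature neutrophil-like cells it stood at 4981 CPM in DKO, 3024 CPM in TKO, 2316 CPM in IL-6 KO and 2943 CPM in TWT (1.69-fold over TWT, not called). In mature neutrophil-like cells it stood at 3814 CPM in DKO against 1524 CPM in TKO, 1129 CPM in IL-6 KO and 1623 CPM in TWT, 2.35-fold over TWT (2.28 to 2.42) and 2.50-fold over TKO (2.43 to 2.58). In granulocyte-monocyte progenitor-like cells it was 96.3 CPM in DKO against 32.7 CPM in TKO, 33.7 CPM in IL-6 KO and 39.2 CPM in TWT (2.45-fold over TWT, 1.95 to 3.11). With free RNA subtracted these progenitor ratios, with a pseudocount of 1 CPM, were 1.71 to TWT and 1.99 to TKO, below the 2-fold rule. In monocyte-like cells the 4 libraries lay between 514 and 577 CPM.

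**Figure D4:**
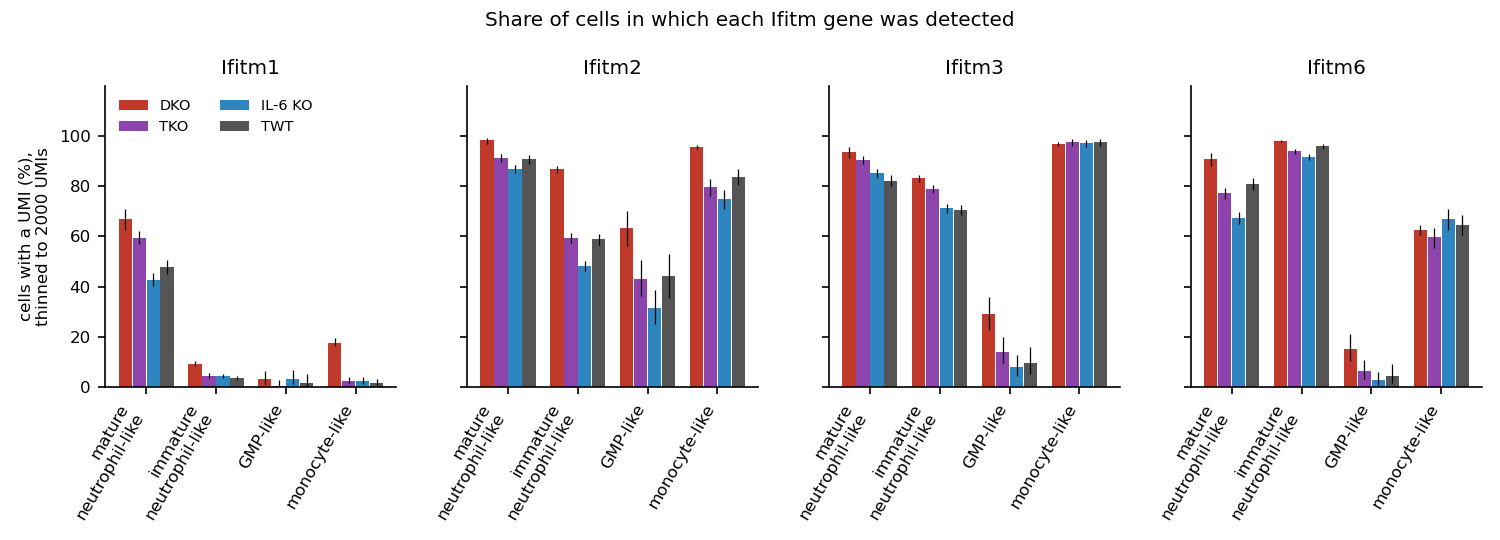
Share of cells with at least 1 UMI of each Ifitm gene after thinning every cell to 2000 UMIs, in 4 classes and 4 libraries, with exact Clopper-Pearson intervals; GMP-like stands for granulocyte-monocyte progenitor-like. The DKO bar for Ifitm1 in monocyte-like cells is at 17.7% beside 1.62% to 2.46% in the others, and the Ifitm3 bars of monocyte-like cells are all at 97.0% or above.

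The 4 genes were often found in the same cell. At 2000 UMIs per cell, all 4 were detected in 55.3% of DKO, 37.1% of TKO, 19.9% of IL-6 KO and 28.3% of TWT mature neutrophil-like cells. In monocyte-like cells all 4 were detected in 11.3% of DKO cells and in 1.08% to 1.15% of those of the other libraries, an order set by Ifitm1. Ifitm1 and Ifitm2 were found together in 17.1% of DKO monocyte-like cells, where the product of their single shares is 17.0%. Over 45 sums of a class in a library with at least 50 cells, the profile of Ifitm2 was most like that of Ifitm3 among the 4 (Pearson r = 0.88 on log2(CPM + 1)), and that of Ifitm1 was least like those of Ifitm3 and Ifitm6 (r = 0.39 and 0.36). These correlations are descriptions, since sums of 1 library share its depth and free RNA. Among 6914 genes, those most like Ifitm1 were Map1lc3b, Ccr1, Gm17619 and Fbxo31 (r = 0.77 to 0.80), like Ifitm2 Fgd4, Rab31, Lst1 and Plin2 (r = 0.90 for each), like Ifitm3 Tgfbi, Gpr141, Lrrc25 and Lyz2 (r = 0.90 to 0.92), and like Ifitm6 6430548M08Rik, Rasgrp4, Mcemp1 and Nadk (r = 0.88 to 0.92).

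In lymphoid cells the 4 genes were low, and neutrophil transcripts were found in the same cells. T cell-like cells held 78.1 CPM of Ifitm2 in DKO, against 12.9 CPM in TKO, 16.0 CPM in IL-6 KO and 10.2 CPM in TWT. B cell-like cells held 97.4 CPM in DKO against 20.9 CPM in TKO, 24.3 CPM in IL-6 KO and 19.8 CPM in TWT. Neutrophil transcripts moved in the same direction: S100a8 and S100a9, which lymphocytes should lack, summed to 2717 CPM in DKO T cell-like cells, against 1166 CPM in TKO, 1886 CPM in IL-6 KO and 1606 CPM in TWT. That corresponds to 1.97% of the library's own profile in DKO and 0.622% to 0.955% in the others, and scaling by it gives 31.3 CPM of Ifitm2 for DKO and 3.996 to 4.95 CPM for the others, below the measured levels. Per 1000 UMIs of S100a8 and S100a9 in DKO, Ifitm2 was at 28.7 in T cell-like, 28.4 in B cell-like and 25.1 in NK-like cells, and Ifitm3 at 26.99, 37.3 and 22.3 in these classes, while DKO cells as a whole held 11.5 and 12.3. Such an excess was not particular to DKO. For Ifitm2, T cell-like cells held 11.0 in TKO, 8.49 in IL-6 KO and 6.33 in TWT. Those libraries as a whole held 3.43, 2.62 and 3.05. With free RNA subtracted, B cell-like cells held 66.1 CPM of Ifitm2 in DKO against 14.9 CPM in TWT, and 94.4 CPM of Ifitm3 in DKO against 22.3 CPM in TWT. The stricter gate gave smaller log2 ratios to TWT in T cell-like cells, 2.123 for Ifitm2 (2.826 otherwise) and 1.199 for Ifitm3 (1.802 otherwise). The part of free RNA in the 6 called lymphoid pairs beyond this subtraction was not tested. Ifitm1 was not measured in T cell-like or B cell-like cells in DKO against TWT.

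Outside these comparisons, calls were few and rested on few UMIs. In TKO against TWT the call was Ifitm6 in basophil and mast cell-like cells, with 24 UMIs in TKO and 9 UMIs in TWT (2.20-fold, 0.985 to 5.37), whose interval includes 1 and which was 1.04-fold under the stricter gate. In IL-6 KO against TWT, Ifitm3 and Ifitm6 in plasmacytoid dendritic-like cells were 2.57-fold (1.76 to 3.83) and 2.32-fold higher (1.60 to 3.41). Neither call held throughout: a stricter gate gave 1.41 for Ifitm3, and the mean of each cell's CPM gave 1.51 for Ifitm6. For Ifitm6, 57 of the 106 UMIs in IL-6 KO came from 1 cell. Ifitm3 in plasma cell-like cells was 2.62-fold higher (1.98 to 3.49), with 45 of 161 UMIs in 1 cell. Ifitm1 in NK-like cells was lower, with 8 UMIs in IL-6 KO and 31 UMIs in TWT, of which 21 were in 1 cell.

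Of the other family members, Ifitm5, known as a gene of bone-forming cells, and Ifitm7 stayed at or below 1.52 CPM over all cells of any library. Ifitm10 had its highest levels in T cell-like and NK-like cells. T cell-like cells held 66.2 CPM in DKO, 68.1 CPM in TKO, 52.3 CPM in IL-6 KO and 63.5 CPM in TWT. NK-like cells held 164 CPM in DKO, 71.2 CPM in TKO, 74.2 CPM in IL-6 KO and 68.1 CPM in TWT. B cell-like cells held at most 1.76 CPM, in TWT. The DKO value in NK-like cells rests on 26 UMIs in 36 cells.

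Ifitm1 and Ifitm2 lay on the other side from most interferon-stimulated genes in DKO monocyte-like cells. Of 50 listed type I interferon-stimulated genes, 17 were measured in monocyte-like cells in DKO against TWT. None was higher and 10 were lower in DKO, with a median log2 ratio of -1.14 beside -0.17 over all genes, where 4.22% of 3196 genes were higher and 9.51% lower. Ifi27l2a, an interferon-induced mitochondrial protein gene, stood at 64.5 CPM in DKO against 1103 CPM in TKO, 745 CPM in IL-6 KO and 624 CPM in TWT. Slfn5 stood at 27.4 CPM in DKO against 213 CPM in TKO, 240 CPM in IL-6 KO and 173 CPM in TWT, Bst2, whose product tethers budding virus, at 45.4 CPM in DKO against 175 CPM in TKO, 159 CPM in IL-6 KO and 125 CPM in TWT, and Ifi209 at 36.1 CPM in DKO against 152 CPM in TKO, 161 CPM in IL-6 KO and 96.8 CPM in TWT. Against TKO, 17 of 21 measured genes of the list were lower in DKO and none higher (median log2 ratio -1.82), where 4.67% of all genes were higher and 8.96% lower. In mature neutrophil-like cells 5 of 11 were lower in DKO than in TWT and none higher (7.88% of all genes higher, 7.5% lower). In monocyte-like cells Slfn5, Bst2 and Ifi209 lay below 50 CPM in DKO, so they passed the minimum level only through the other library. Isg15, Oasl2, Eif2ak2 and Ifi211 were measured there against TKO but not against TWT, so they passed only through TKO. Such genes could not come out higher, so their count is no support. Of the Ifitm genes only Ifitm3, with log2 ratios of -0.33 to TWT and -0.56 to TKO in monocyte-like cells, lay on the same side as this list.

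TKO and IL-6 KO lay on the other side of TWT from DKO for this list. In TKO against TWT, 3 of 21 listed genes were higher in monocyte-like cells (Isg15, Oasl2 and Ifi211, at log2 ratios of 1.09, 1.01 and 1.07) and none lower, where 0.225% of all genes were higher and 0.289% lower, and 7 of 20 were higher in mature neutrophil-like cells and none lower, where 0.452% and 0.633% were. The list's median log2 ratio was 0.49 and 0.63 in these classes. Isg15, Oasl2 and Ifi211 passed the minimum level only through TKO, so they could not come out lower. In mature neutrophil-like cells 20 listed genes were measured here and 11 in DKO against TWT, so some of the 20 passed only through TKO. Counts and medians that include such genes are no support for a direction. In IL-6 KO against TWT, none of 19 was higher or lower in monocyte-like cells (0.223% and 0.414% of all genes, median 0.26), and 2 of 17 were higher and none lower in mature neutrophil-like cells (0.73% and 0.182%, median 0.48). In mature neutrophil-like cells Ifitm1 and Ifitm3 of TKO were also above TWT (1.66-fold and 1.49-fold), and Ifitm2 and Ifitm6 were within 10% of it.

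**Figure D5:**
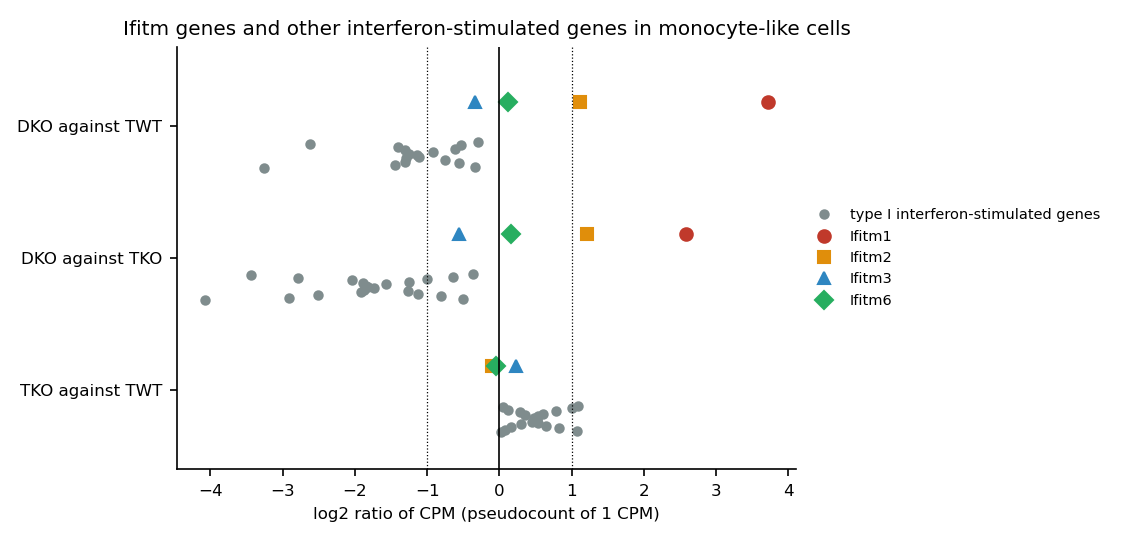
Log2 ratio of CPM (pseudocount of 1 CPM) of the Ifitm genes and of each measured type I interferon-stimulated gene in monocyte-like cells, in 3 comparisons; dotted lines mark 2-fold. In both comparisons with DKO every interferon-stimulated gene drawn lies left of 0 while Ifitm1 and Ifitm2 lie right of 1, and in TKO against TWT the list lies right of 0.

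Genes of interferon signaling divided. Of 17 listed, 12 were measured in monocyte-like cells in DKO against TWT, of which 2 were higher and 4 lower. Besides Socs3, the higher gene was Ifngr1, a chain of the interferon-gamma receptor (log2 ratio 1.16), named after its value was seen. Socs3, a feedback inhibitor of JAK-STAT signaling downstream of IL-6 family cytokines, stood at 120 CPM in DKO against 5.97 CPM in TKO, 2.26 CPM in IL-6 KO and 8.22 CPM in TWT, 14.7-fold over TWT. Irf9, an interferon-regulated transcription factor, stood at 23.3 CPM in DKO against 80.05 CPM in TKO, 66.6 CPM in IL-6 KO and 56.7 CPM in TWT, and the kinase gene Tyk2 at 30.3 CPM in DKO against 62.7 CPM in TKO, 60.5 CPM in IL-6 KO and 69.6 CPM in TWT. In DKO against TWT, Socs3 passed the minimum level only through DKO, and Irf9 and Tyk2 only through TWT. The interferon-gamma list had 1 measured gene of 25, Irf8, a transcription factor of monocyte and dendritic cell development, which stood at 161 CPM in DKO against 529 CPM in TKO, 517 CPM in IL-6 KO and 439 CPM in TWT.

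Neighbours of the cluster on chromosome 7 did not share a direction. Of 22 listed genes of the region, 5 were measured in monocyte-like cells, of which 1 was higher and 1 lower in DKO against TWT, beside the 4.22% and 9.51% of all genes. Rnh1, which encodes a ribonuclease inhibitor, was higher (539 CPM in DKO against 285 CPM in TKO, 199 CPM in IL-6 KO and 246 CPM in TWT), and Irf7, a master regulator of interferon production that lies in the same region, was lower (25.4 CPM in DKO against 96.8 CPM in TKO, 59.8 CPM in IL-6 KO and 56.1 CPM in TWT). Hras and Ric8a were at 1.38-fold and 1.08-fold and were not called. Of 10 listed partners and modifying enzymes of IFITM proteins, 3 were measured, 1 of them higher against the same background: the tetraspanin gene Cd9 was higher (78.1 CPM in DKO against 25.1 CPM in TWT), and the palmitoyltransferase gene Zdhhc20 and Vapa were at 0.5997-fold and 1.04-fold. In DKO against TWT, Irf7 passed the minimum level only through TWT and Cd9 only through DKO. None of the listed other dispanins was measured in these cells.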

How the data were processed

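Bone marrow cells of 4 genotypes were sequenced as 1 library each (10x 3′ chemistry, v3). The authors aligned reads to mm10 and counted UMIs with Cell Ranger, and the deposited files hold these whole-number counts per gene and barcode. Seurat 4 is also named in the submitters' processing notes. Totals ranged between 61292684 UMIs in IL-6 KO and 85145074 UMIs in DKO. A tag is counted at the 3′ end, so CPM was not divided by gene length.

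Of the study's filters, the limits on detected genes and mitochondrial UMIs were applied, but not those on hemoglobin genes or on cells per gene. A cell joined the class with the highest mean scaled marker level (at least 0.2, a lead of 0.05 and 3 distinct markers). Class names and shares are thus rebuilt and may differ from the study's. UMIs were summed per class and library, and log2 ratios used a pseudocount of 1 CPM. Shares used cells thinned to 2000 UMIs, and between 526 and 871 shallower cells per library were left out. Free RNA was scaled by S100a8 and S100a9 in T cell-like cells. Doublets were kept, and Scrublet (scanpy 1.11.5) was an alternative. Named genes were the 4 members, class markers, the 4 most alike genes of each and up to 4 genes per list with the largest change. On simulated counts from the monocyte-like sums of DKO and TWT (2980 genes), the rule called 98.5% of 200 genes changed 4-fold. The members, markers and lists were chosen with earlier results of these data known. Python 3.11.15, numpy 2.4.6, scipy 1.17.1, pandas 2.3.3 and matplotlib 3.10.9 were used. 1 gene of the lists is counted but not reported here by name.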

Additional observations from a re-analysis of the deposited data

Results flagged for a closer look

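Ifitm3 was called in opposite directions in different classes of the same comparison, DKO against TKO. Its log2 ratio was 1.38 in granulocyte-monocyte progenitor-like, 2.56 in T cell-like and 2.05 in B cell-like cells, all higher in DKO, and -1.14 in non-classical monocyte-like cells, lower in DKO. The T cell-like and B cell-like pairs passed the minimum level only through DKO, so they could not come out lower. The difference between classes was not tested, since each genotype has 1 library. In DKO, Ifitm3 stood at 73.3 CPM in T cell-like and 128 CPM in B cell-like cells, where 33.5 CPM is the level scaled from free RNA.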

How the results depend on the processing

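No paired analysis was possible because each genotype has 1 library. With 1 library per genotype no replicate could be left out, and no difference can be separated from differences between mice. Of 111 ratios of a gene in a class or over all cells, 17 changed direction under some alternative, none of them called, and 14 moved by over 1.5 times, mostly in T cell-like and plasmacytoid dendritic-like cells. The 17 pairs higher in DKO against TWT became 7, the 13 higher in DKO against TKO became 4, and the calls of TKO and IL-6 KO against TWT became 0, when at least 50 CPM was asked of both libraries (chosen after seeing the data). Without a minimum level, the lower pairs in DKO against TKO became 2, those in TKO against TWT 4 higher and 1 lower, and those in IL-6 KO against TWT 7 higher and 2 lower. The 1 higher pair in TKO against TWT became 2 without Scrublet doublets, under its own threshold or, chosen after seeing the data, with the other libraries' median threshold used in DKO, and 0 with a pseudocount of 10 CPM. Its 0 lower pairs became 1 with the mean of each cell's CPM or without genes above 1% of a class's UMIs. Ifitm1 in monocyte-like cells, DKO against TKO, was between 4.94-fold and 12.3-fold, and against TWT between 8.62-fold and 14.5-fold. Without free RNA, 13 and 9 pairs were higher in DKO against TWT and TKO. The main limits are the single libraries, the marker gate and the few cells of some classes.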

Other observations

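Macrophage-like cells (marked by C1qa, C1qb and Vcam1) numbered 68 in DKO, against 12 in TKO, 15 in IL-6 KO and 20 in TWT, too few for a comparison. In DKO they held 2841 CPM of Ifitm2 (2683 to 3006), 688 CPM of Ifitm3, 109 CPM of Ifitm6 and 7.10 CPM of Ifitm1 (3 UMIs), so Ifitm2 was high and Ifitm1 near absent in the same cells. Erythroid-like cells held more Ifitm3 in TKO and IL-6 KO (210 and 177 CPM) than in TWT (115 CPM), with ratios of 1.83 (1.46 to 2.30) and 1.54 (1.17 to 2.03) that were not called. Pro/pre-B cell-like cells, of which DKO had none, held 124 CPM of Ifitm2 in TKO, 80.5 CPM in IL-6 KO and 110 CPM in TWT, above the 19.8 to 24.3 CPM of B cell-like cells in those libraries. Cells left unassigned held 2067 CPM of Ifitm2 in DKO, against 538 CPM in TKO, 372 CPM in IL-6 KO and 539 CPM in TWT.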
